A study of Homo sapiens with 18 samples.

Results

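The 9 genes SFN, SLPI, MAL2, TSPAN1, ELF3, LCN2, ALPP, MAP7 and ZNF385A encode products found in luminal and secretory epithelium. They were picked for their rise with doxycycline (DOX) in MDA-MB-436 cells, out of 25721 genes listed in at least 1 of the 3 expression tables, and each of the 9 is listed in all 3. Their levels in MDA-MB-436 are therefore given as a description with no test. Tests of the 9 are given only for BT-549 cells, whose values were not the basis of the choice, although earlier results of these data were known. The data are 18 RNA-seq libraries, 3 in each of 6 groups. MDA-MB-436, a triple-negative breast cancer (TNBC) line with mutant BRCA1, carried tet-MUC1shRNA, a hairpin against MUC1 that DOX switches on, and was given vehicle (0.1% DMSO) or DOX at 500 ng/ml. BT-549, a TNBC line with wild-type BRCA1, carried a stable shRNA against PBRM1 or against IRF1, with a separate group of control shRNA cells for each. All 6 groups were labelled puromycin resistant, and the vehicle cells carried the same inducible hairpin as the DOX cells. The libraries came from cells cultured in triplicate, so the spread is that between cultures of a line and not between patients. No control-hairpin line given DOX was analysed here, so effects of DOX and of MUC1 silencing cannot be told apart.

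Luminal epithelial cells of the breast line the ducts and secrete into the lumen across an apical membrane. They make proteins that guard this surface, such as protease inhibitors and iron-scavenging lipocalins, and they sort cargo to the apical side with dedicated membrane proteins. TNBC lines of mesenchymal type, such as those used here, express little of this program. SLPI (secretory leukocyte protease inhibitor) and LCN2 (lipocalin 2, which binds bacterial siderophores) are secreted. MAL2 is a membrane protein of transcytosis to the apical surface, TSPAN1 is a tetraspanin, and ALPP is the placental alkaline phosphatase, held at the cell surface by a lipid anchor. MAP7 binds microtubules and recruits kinesin. ELF3 is an epithelium-restricted ETS transcription factor. SFN (stratifin) is an epithelial adaptor that binds phosphorylated proteins and is a target of p53, and ZNF385A is a zinc finger protein reported to act with p53.

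RefSeq promoter windows (assembly GRCh38.p14, 250 bases before to 50 after the annotated start) were at hand for 6 of the 9 genes and came to 9 windows, since MAP7 has 4. Windows were searched on both strands for short motifs of factors known in epithelial or interferon control. The E-box CAGGTG, the form bound by the ZEB and SNAI repressors of epithelial genes, was found in 5 of the 9 windows, belonging to 5 of the 6 genes, and in 20.6% of all 35116 windows. The 5 windows that hold it are printed below, with CAGGTG or its reverse complement CACCTG in capitals.
SFN: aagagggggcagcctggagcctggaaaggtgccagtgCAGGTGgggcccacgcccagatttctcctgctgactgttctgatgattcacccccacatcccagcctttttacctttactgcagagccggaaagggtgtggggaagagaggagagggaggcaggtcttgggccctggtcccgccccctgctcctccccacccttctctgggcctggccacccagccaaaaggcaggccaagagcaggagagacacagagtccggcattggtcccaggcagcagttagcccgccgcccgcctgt
ELF3: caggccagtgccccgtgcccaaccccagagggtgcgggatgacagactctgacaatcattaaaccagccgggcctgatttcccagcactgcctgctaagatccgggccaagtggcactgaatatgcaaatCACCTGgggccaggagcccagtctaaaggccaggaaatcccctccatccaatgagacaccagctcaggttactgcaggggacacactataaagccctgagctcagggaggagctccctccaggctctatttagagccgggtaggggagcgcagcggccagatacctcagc
ALPP: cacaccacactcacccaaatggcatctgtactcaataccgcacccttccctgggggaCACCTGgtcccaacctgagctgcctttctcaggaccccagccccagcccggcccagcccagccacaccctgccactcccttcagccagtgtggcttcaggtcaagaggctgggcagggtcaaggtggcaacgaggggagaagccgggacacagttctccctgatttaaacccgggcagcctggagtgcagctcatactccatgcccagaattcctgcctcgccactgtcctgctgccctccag
MAP7: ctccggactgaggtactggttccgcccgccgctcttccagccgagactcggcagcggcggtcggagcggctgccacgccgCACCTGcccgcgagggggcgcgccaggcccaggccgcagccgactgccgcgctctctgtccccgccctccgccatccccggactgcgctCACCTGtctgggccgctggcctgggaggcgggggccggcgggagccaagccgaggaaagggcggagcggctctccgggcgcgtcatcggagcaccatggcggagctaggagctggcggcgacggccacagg
LCN2: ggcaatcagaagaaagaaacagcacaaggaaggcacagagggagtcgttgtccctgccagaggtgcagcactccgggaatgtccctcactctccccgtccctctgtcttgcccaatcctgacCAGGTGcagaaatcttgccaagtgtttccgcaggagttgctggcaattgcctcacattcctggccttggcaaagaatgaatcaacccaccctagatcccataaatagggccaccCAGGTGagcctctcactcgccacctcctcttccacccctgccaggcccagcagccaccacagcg

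The windows lie at chr1:26862899-26863198 (SFN, plus strand), chr1:202010337-202010636 (ELF3, plus strand), chr2:232378501-232378800 (ALPP, plus strand), chr6:136550373-136550672 (MAP7, minus strand) and chr9:128149203-128149502 (LCN2, plus strand). The E-box started at position -213 from the start site in SFN, at -120 in ELF3 and at -193 in ALPP. LCN2 held 2 copies, at -128 and -14, and the MAP7 window held 2, at -170 and -81. TSPAN1 (chr1:46174837-46175136, plus strand) and the other 3 MAP7 windows held none. The letters TGANTCA, a loose form of the AP-1 motif that allows any middle base, were in 7.71% of all windows. Among these genes they were in the SFN window as TGATTCA and in the LCN2 window as TGAATCA. These matches are not called AP-1 sites. The NF-kB type motif was in ELF3 alone among these genes and in 1.91% of all windows, and TATAAA was in ELF3 and in 11.5% of all. No member window held the interferon-stimulated response element (3.57% of all windows), CAGGAAG (ETS type, 12.7%) or ACCGGT (grainyhead type, 1.83%). A match is a stretch of letters and not a measured binding site.

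In MDA-MB-436, all 9 genes were higher in each DOX library than in any vehicle library, as were 31.5% of the 13229 genes tested. Of these genes 27% were higher and 23.4% lower with DOX at an adjusted p under 0.05, and 1.34% were also more than 1 higher on the log2 scale. The 9 genes all met both criteria, which their choice on this contrast fixed. Levels are in TPM, a transcript abundance scaled to the same total in every library and corrected for transcript length, which allows genes to be set side by side. Folds are given as the ratio of mean TPM and as a limma log2 fold with its standard error on log2(TPM + 1), which understates changes of genes near 1 TPM. The median log2 fold was 2.76 over the 9 genes and 0.02 over all genes tested. By log2 fold, SFN, ALPP, SLPI and TSPAN1 ranked 1 to 4, ZNF385A, MAL2 and MAP7 ranked 6 to 8, ELF3 ranked 21 and LCN2 ranked 33.

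**Figure D1:**
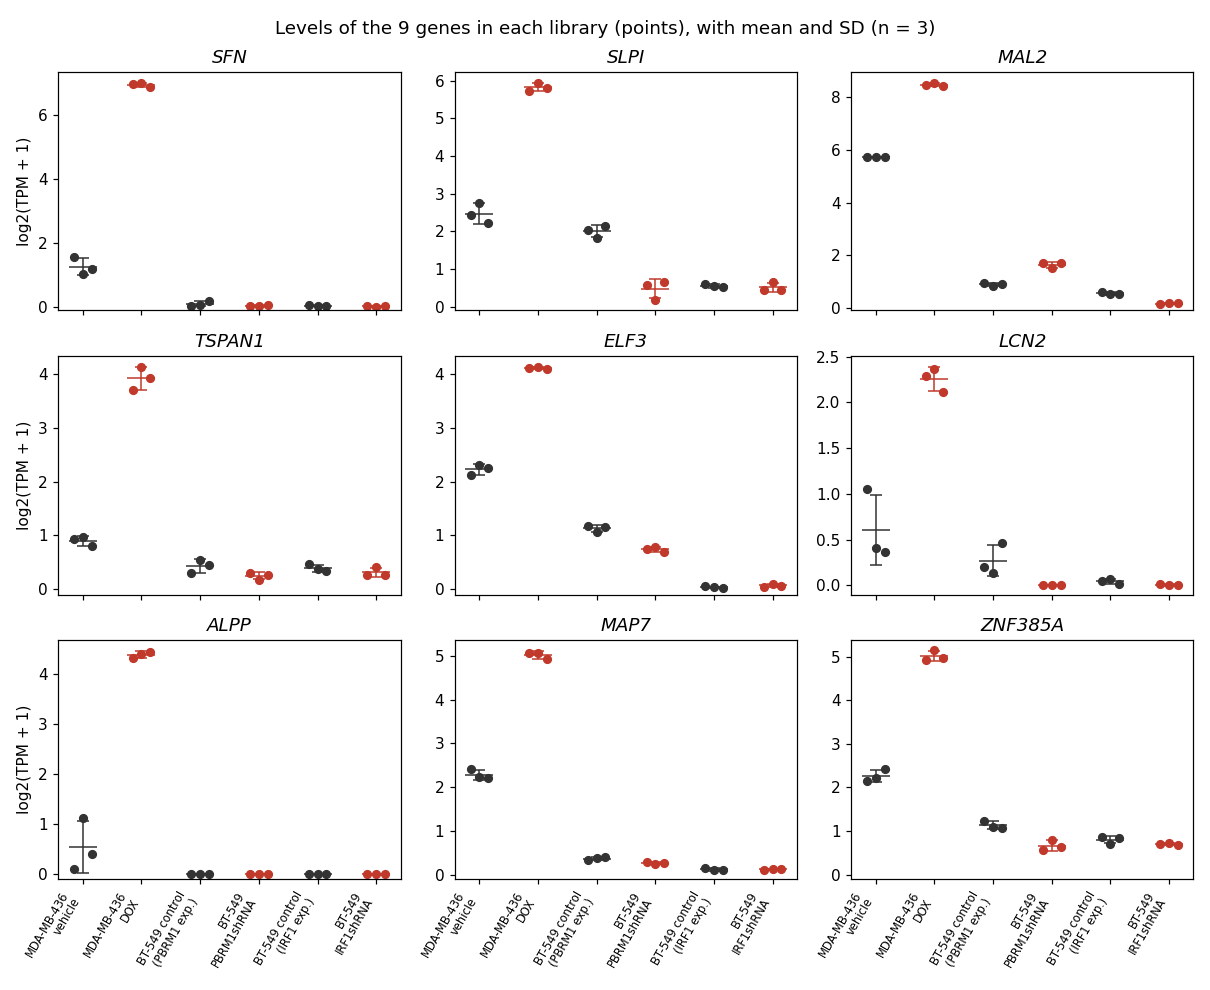
Level of each gene, as log2(TPM + 1), in the 18 libraries; points are libraries, horizontal marks and bars are the mean and SD of a group (n = 3), black is control or vehicle and red is silenced or DOX. All 9 genes sit higher in the 3 DOX libraries than in the 3 vehicle libraries, and in BT-549 most of them lie below 1 TPM, which is 1 on this axis; the 3 experiments were normalized separately.

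Among the secreted products, SLPI stood at 4.41, 5.75 and 3.63 TPM in the vehicle libraries and at 52.2, 60.6 and 54.5 TPM with DOX. Its mean rose from 4.59 ± 1.07 (SD, n = 3) to 55.8 ± 4.34 TPM, a ratio of 12.1 and a log2 fold of 3.36 ± 0.125 (SE). SLPI inhibits neutrophil elastase and other serine proteases at mucosal surfaces. LCN2 was the least abundant of the 9 with DOX. LCN2 measured 1.07, 0.324 and 0.292 TPM in vehicle and 3.89, 4.16 and 3.33 TPM with DOX. Vehicle replicate 1 was more than 3 times the other vehicle libraries, and the LCN2 ratio of 6.76 became 12.3 without it. The authors' mean normalized count of LCN2 over the 6 libraries was 6.68, the lowest of the 9 genes, so its level rests on few reads.

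Of the surface and membrane products, MAL2 was the most abundant in both groups. MAL2 measured 52.2, 52.4 and 52.2 TPM in vehicle and 351, 374 and 347 TPM with DOX. The vehicle values were tightly grouped (52.3 ± 0.113), and the mean with DOX was 357 ± 14.4 TPM, a ratio of 6.83 and a log2 fold of 2.75 ± 0.0383. TSPAN1 was below 1 TPM in all 3 vehicle libraries (0.900, 0.956 and 0.739) and reached 12.1, 16.6 and 14.2 TPM with DOX, a ratio of 16.5. ALPP, a phosphatase of the placenta that some carcinomas express, was the most variable in vehicle, at 0.0754, 1.17 and 0.309 TPM. With DOX it measured 18.8, 19.9 and 20.7 TPM. Its ratio of 38.3 rested on vehicle replicate 2 and was 103 without that library. The log2 fold of ALPP was 3.84 ± 0.219, the second largest of all genes tested.

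SFN had the largest log2 fold of all genes tested, 5.68 ± 0.117. SFN measured 1.94, 1.06 and 1.28 TPM in vehicle and 123, 126 and 117 TPM with DOX, so that its mean went from 1.43 ± 0.459 to 122 ± 4.58 TPM, a ratio of 85.3. SFN is thus the gene that moved farthest in the order of levels, from the sixth place in vehicle to the second with DOX. ZNF385A rose from 3.41, 3.62 and 4.33 TPM to 29.5, 34.3 and 30.1 TPM, a ratio of 8.26. MAP7, the microtubule-binding protein, gave nearly the same values, with 4.30, 3.66 and 3.59 TPM in vehicle and 32.4, 32.7 and 29.3 TPM with DOX, a ratio of 8.17.

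ELF3, the transcription factor of the group, had the smallest ratio. ELF3 measured 3.35, 3.98 and 3.76 TPM in vehicle and 16.2, 16.5 and 16.1 TPM with DOX, a ratio of 4.40 and a log2 fold of 1.88 ± 0.0781. Its DOX libraries differed among themselves by less than its vehicle libraries did. The antisense transcript ELF3-AS1, whose start lies inside the ELF3 promoter window, was also higher with DOX, at 0.729, 1.33 and 0.300 TPM in vehicle against 5.13, 5.78 and 2.98 TPM. The library kit marks strand, but the strand setting of the authors' counting is not stated, so reads of ELF3 and ELF3-AS1 may not be fully separated, and the same holds for MAL2 and MAL2-AS1.

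In the vehicle cells the order of levels was MAL2, then SLPI, MAP7, ZNF385A and ELF3, whose ranges overlapped from neighbour to neighbour, then SFN, then TSPAN1, LCN2 and ALPP, whose ranges again overlapped. With DOX the order was MAL2, SFN, SLPI, MAP7 and ZNF385A (overlapping), ALPP, ELF3 and TSPAN1 (overlapping) and LCN2. The span between the highest and lowest gene thus ran from 52.3 to 0.517 TPM in vehicle and from 357 to 3.79 TPM with DOX.

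Close relatives of the 9 genes did not move as a block. Of 30 listed paralogues, 16 were tested, 6 were higher with DOX, 4 were lower and 6 did not pass, with a median log2 fold of 0.02. These counts stand beside 27% higher and 23.4% lower over all genes. MAL, the founding member of the MAL2 family, moved opposite to MAL2: it stood at 19.3, 24.0 and 27.1 TPM in vehicle and at 6.62, 7.07 and 6.06 TPM with DOX (log2 fold -1.68 ± 0.114, adjusted p = 6.3e-06). MALL, a further MAL relative, rose from a mean of 2.90 ± 0.784 to 10.0 ± 1.52 TPM (1.51 ± 0.156, adjusted p = 6.8e-05). PI3 (elafin), an elastase inhibitor with the same type of domain as SLPI, lies at chr20:45174876-45176544, on the same chromosome as SLPI (chr20:45252239-45254564, GENCODE, GRCh38), was already abundant and rose from 94.6 ± 6.89 to 210 ± 11.3 TPM (1.14 ± 0.0593, adjusted p = 1.5e-06). Of the relatives of SFN, YWHAG and YWHAZ fell (-0.67 ± 0.034 and -0.65 ± 0.0357), and YWHAB, YWHAE, YWHAH and YWHAQ did not pass the test. Among the ETS relatives of ELF3, ELF2 rose by 0.45 ± 0.0493 and ELF1 and ELF4 by 0.15 ± 0.0409 and 0.18 ± 0.0562. ZNF385B rose by 0.52 ± 0.175 (adjusted p = 0.0341). Of the MAP7 relatives, MAP7D1 fell by 0.34 on the log2 scale, whereas MAP7D2 and MAP7D3 did not pass. ALPPL2, nearly identical to ALPP in sequence, was listed at 0 in 5 of the 6 libraries and at 0.358 TPM in DOX replicate 1, and how the authors' counting divided reads between the pair is not stated.

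**Figure D2:**
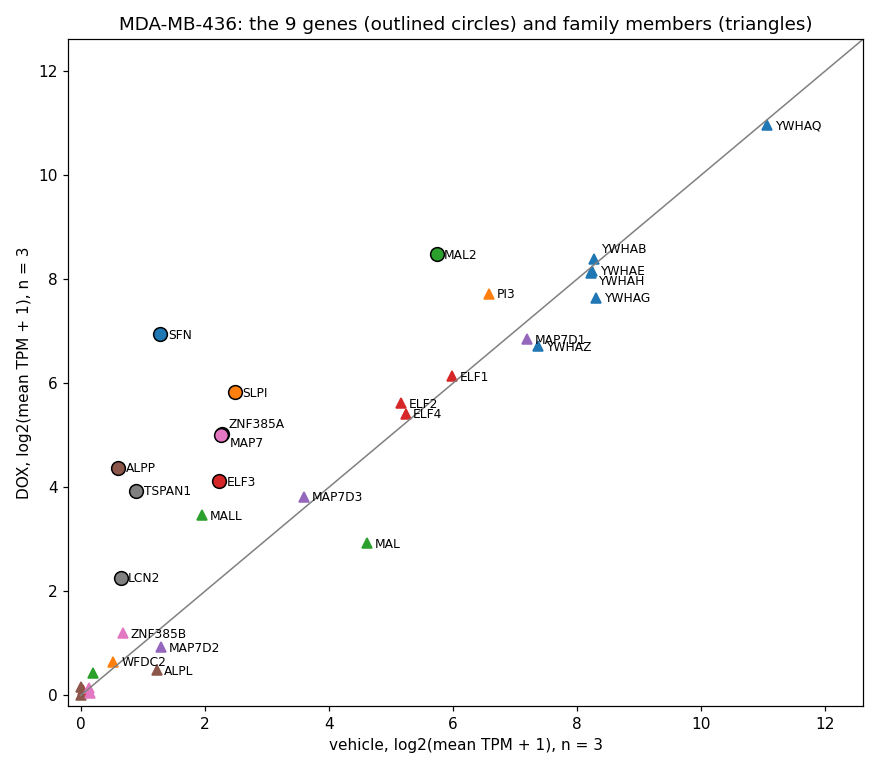
Mean level with DOX (vertical axis) against mean level with vehicle (horizontal axis) in MDA-MB-436, as log2(mean TPM + 1) with n = 3 per group; outlined circles are the 9 genes, triangles are members of the same families in the same colour, grey circles have no relatives drawn, and the line marks equal levels. The 9 genes lie above the line, MAL lies below it (23.5 against 6.58 TPM) and the relatives of SFN lie near it.

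The 9 genes are a small part of the luminal secretory program, of which many listed genes were at 0 or below the filter in MDA-MB-436. Of 36 other secretory luminal genes, 16 were listed at 0 in all 6 libraries, among them AGR2, TFF1, TFF3, PIGR, SCGB2A2, PIP and the casein gene CSN2 (named after their values were seen), and 9 more stayed below the filter of 1 TPM in 3 libraries without being absent. LTF (lactotransferrin), for example, measured 0.582, 0.471 and 0.265 TPM in vehicle and 1.11, 0.970 and 1.28 TPM with DOX. Of the 11 tested, 6 were higher with DOX, 3 were lower and 2 did not pass, beside 27% higher and 23.4% lower over all genes. The median log2 fold of the 11 was 0.21. SYTL2, which tethers secretory vesicles, rose from 4.94 ± 0.948 to 11.1 ± 0.722 TPM (1.03 ± 0.117, adjusted p = 0.00011). MYO5B, a motor of apical recycling, rose by 0.87 ± 0.0963 (adjusted p = 9.6e-05). SCGB1D2, a secretoglobin, rose by 1.15 ± 0.396 (adjusted p = 0.0371) with overlapping groups, and it did not pass when vehicle replicate 1 or 2 or DOX replicate 2 or 3 was left out (adjusted p up to 0.129). CREB3L4 fell by 0.65 on the log2 scale.

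Most tested genes that protect mucosal surfaces rose. Of 34 antiprotease, antimicrobial and acute-phase genes, 9 were tested, 7 were higher and 0 were lower, with a median log2 fold of 0.86. Over all genes 27% were higher and 23.4% lower. The count covers few of the listed genes, since 10 were listed at 0 in all libraries and 15 more were below the filter. SPINT2 and SPINT1, membrane-bound inhibitors of epithelial serine proteases, rose by 1.30 ± 0.111 and 1.29 ± 0.226 (adjusted p = 2.2e-05 and 0.00139). No vehicle library of SPINT1 reached 1 TPM, so it could only be tested because it was high with DOX. The complement genes C3 and CFB rose by 1.12 ± 0.133 and 0.77 ± 0.107, and SERPINB1, an intracellular elastase inhibitor, rose by 0.86 ± 0.079. The acute-phase gene SAA1 had overlapping groups and a log2 fold of -0.63 ± 0.326 (adjusted p = 0.138).

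Apical transport and tetraspanin genes divided evenly, with 9 of 28 tested genes higher, 8 lower and 11 not passing. These counts stand beside 27% higher and 23.4% lower over all genes. MAL (-1.68 ± 0.114) and MALL (1.51 ± 0.156), given above, had the largest folds of the list among genes that passed. PATJ, a polarity scaffold, rose from 12.1 ± 0.492 to 27.9 ± 1.42 TPM (1.14 ± 0.0607), and TSPAN13 rose by 0.67 ± 0.10. The polarity gene CRB3 and the tetraspanin TSPAN8 were listed at 0 in every library.

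Of 22 epithelial and luminal transcription factors, 9 were tested, of which 3 were higher and 2 lower with DOX. Over all genes 27% were higher and 23.4% lower. ELF5, SPDEF, TFAP2B, GRHL2 and OVOL1 were listed at 0 throughout. BARX2 rose by 1.18 ± 0.257 (adjusted p = 0.00458) from a mean of 0.467 ± 0.413 TPM. It passed the filter through the DOX group alone, since no vehicle library reached 1 TPM. GATA3, a determinant of the luminal lineage, rose by 0.62 ± 0.129 (adjusted p = 0.00352) to only 3.39 ± 0.579 TPM. TFAP2C fell by 0.46 on the log2 scale.

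SFN and ZNF385A are both tied to p53. Of 19 tested p53 pathway targets, 7 were higher, 3 lower and 9 did not pass, beside 27% higher and 23.4% lower over all genes, with a median log2 fold of 0.09. BTG2 rose by 0.90 ± 0.096, CDKN1A by 0.69 ± 0.0566 and SESN2 by 0.57 ± 0.0632, and GADD45A fell by 0.47 on the log2 scale. The part of p53 in the levels of SFN and ZNF385A was not tested.

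Mesenchymal markers, which mark the other end of the epithelial to mesenchymal axis, were abundant in both groups. Their summed level was 2370 to 2500 TPM in vehicle and 1600 to 1690 TPM with DOX, with COL1A2 at 0. Of 11 tested, 6 were lower, 3 higher and 2 did not pass, beside 23.4% lower and 27% higher over all genes. VIM (vimentin) fell from 1810 ± 53.9 to 1030 ± 38.7 TPM (-0.82 ± 0.039, limma adjusted p = 9.5e-07). VIM made up most of the summed level in both groups, so the fall of the sum mostly follows this gene. ZEB2 fell from 30.3 ± 1.53 to 8.04 ± 0.380 TPM (-1.79 ± 0.0638, adjusted p = 2e-07) and ZEB1 from 10.2 ± 0.927 to 5.16 ± 0.173 TPM (-0.86 ± 0.0857, adjusted p = 5.4e-05). SNAI2, a repressor of the same E-box, moved the other way, from 14.6 ± 1.22 to 32.2 ± 0.404 TPM (1.09 ± 0.0639, adjusted p = 2.9e-06). The part of these repressors in the levels of the 9 genes was not tested.

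MUC1, the target of the hairpin, stood at 6.37, 4.97 and 5.55 TPM in vehicle and at 3.65, 2.71 and 2.73 TPM with DOX (-0.72 ± 0.127, adjusted p = 0.00148), so transcript remained. The receptor genes that define TNBC by their absence were low, with ESR1 and PGR at most 0.106 TPM in all 6 libraries and ERBB2 at 15.9 to 20.4 TPM. The summed levels of markers of other cell types did not rise with DOX. The sum of 18 leukocyte and erythroid markers was 109 to 116 TPM in vehicle and 106 to 116 TPM with DOX. It included 8 genes at 0, CD3E and HBB among them, and 8 more were below the filter. Only 2 were tested, of which CD14 rose by 0.89 ± 0.136 and 1 did not pass. The sum thus rests on few genes and does not show how most of the 18 moved. The sum of 10 endothelial markers was 3.05 to 3.79 TPM and 1.76 to 1.80 TPM. In bulk RNA, more cells expressing a gene and more RNA per cell cannot be told apart.

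**Figure D3:**
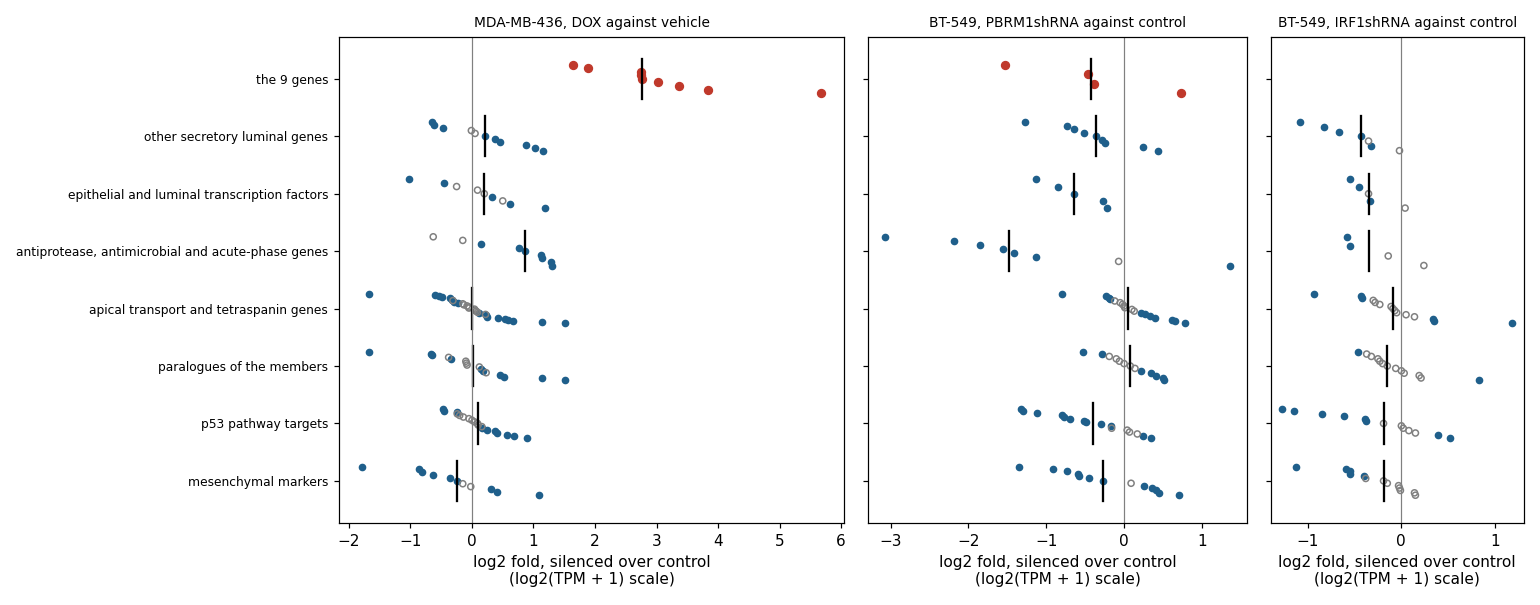
Log2 folds of tested genes in each list, on the log2(TPM + 1) scale, for the 3 experiments; each point is a gene, red are the 9 genes, filled blue passed an adjusted p under 0.05, open grey did not, and the black bar is the list's median. In MDA-MB-436 the 9 genes, which were chosen on this contrast, lie between 1.65 and 5.68, and the median of no other list exceeds 0.86. None of the 9 could be tested in the IRF1 experiment at the deposited scale.

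In BT-549 the 9 genes were low at the deposited scale, on which short noncoding RNAs took up most of each library. Between 75.6% and 79.2% of a library's TPM fell on such RNAs in the PBRM1 experiment and between 84.8% and 88.5% in the IRF1 experiment, against at most 15.2% in the MDA-MB-436 libraries. Values are therefore given as deposited and, where stated, after these RNAs were removed and each library was rescaled to 1000000. ALPP was absent or nearly so, at 0 in all 6 libraries of the PBRM1 experiment and at most 0.00223 TPM in the IRF1 experiment. SFN, the leading gene in MDA-MB-436, did not exceed 0.152 TPM as deposited in any BT-549 library. After the removal, SLPI averaged 13.4 and 3.51 TPM in the controls of the PBRM1 and IRF1 experiments, beside 5.28 TPM in MDA-MB-436 vehicle. In the same order ELF3 was at 5.31, 0.196 and 4.26, ZNF385A at 5.34, 5.57 and 4.38, and TSPAN1 at 1.59, 2.34 and 0.995 TPM. LCN2 was at 0.922, 0.238 and 0.644 TPM, and SFN, MAL2, ALPP and MAP7 stood below vehicle in both controls.

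PBRM1 silencing went with lower SLPI, ELF3 and ZNF385A and with higher MAL2. At the deposited scale 4 of the 9 genes passed the filter, and of these 3 were lower and 1 higher at an adjusted p under 0.05. Across all 10639 genes tested, 34.8% were lower and 24.6% higher, and 1.02% and 3.86% were called higher and lower with a log2 fold beyond 1. Each of the 4 passed the filter through the group where it was higher and would not have been tested otherwise, so their count is a description. The median log2 fold over all genes tested was -0.05. PBRM1, a bromodomain subunit of the PBAF chromatin remodelling complex, was itself lower (12.3, 10.7 and 12.6 TPM in the control libraries against 3.22, 2.69 and 2.95 TPM), as were IRF1 (-1.59 ± 0.0879) and MUC1 (-0.54 ± 0.0874). In this fit the standard error followed the expression level and not each gene's own spread, so the fold is given with its error and the p comes from the fit without short noncoding RNAs, where the gene's own spread counted.

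SLPI showed the largest difference. SLPI measured 3.06, 2.55 and 3.44 TPM in control and 0.485, 0.135 and 0.575 TPM in PBRM1shRNA libraries (log2 fold -1.53 ± 0.0753). Without short noncoding RNAs its mean was 13.4 ± 1.19 against 1.65 ± 0.933 TPM, a log2 fold of -2.51 ± 0.211 (limma, adjusted p = 3.9e-07), and leaving out any 1 library gave -2.72 to -2.18. SLPI met the filter through its control libraries, since no silenced library reached 1 TPM as deposited and 1 of the 3 stayed below it after that removal (0.591 TPM), so it could only be tested because it was high in control. LCN2, the other secreted product, was listed at 0.153, 0.102 and 0.378 TPM in control and at 0 in all 3 PBRM1shRNA libraries. It was below the filter at either scale and was not tested. Among genes below the filter, 25.5% had non-overlapping groups with lower PBRM1shRNA values.

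MAL2 went the other way. MAL2 measured 0.930, 0.775 and 0.886 TPM in control and 2.22, 1.85 and 2.23 TPM with PBRM1shRNA, a ratio of 2.43 and a log2 fold of 0.73 ± 0.0757. It passed the filter through its silenced group alone, so at that scale it could only be tested because it was higher there. Without short noncoding RNAs all 6 libraries were above 1 TPM, at 4.05, 3.74 and 3.78 TPM against 9.18, 8.14 and 9.11 TPM, and the log2 fold was 1.01 ± 0.0757 (limma, adjusted p = 1.4e-07). SLPI and MAL2, both higher with DOX in MDA-MB-436, thus differed in opposite directions in PBRM1-silenced BT-549.

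ELF3 measured 1.25, 1.09 and 1.23 TPM in control and 0.671, 0.730 and 0.619 TPM with PBRM1shRNA (-0.39 ± 0.0716). Without short noncoding RNAs the log2 fold of ELF3 was -0.72 ± 0.0884 (adjusted p = 1.2e-05). ELF3 and ZNF385A each passed the filter through the control group alone. ZNF385A measured 1.35, 1.12 and 1.11 TPM against 0.479, 0.738 and 0.540 TPM (-0.47 ± 0.0712), and without short noncoding RNAs, where all 6 libraries were above 1 TPM for both genes, its log2 fold was -0.88 ± 0.127 (adjusted p = 5e-05).

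TSPAN1 and MAP7 could be tested only without short noncoding RNAs, and there only through the control group, since neither reached 1 TPM in any PBRM1shRNA library. On that scale 6 of the 9 genes were tested, 5 lower and 1 higher, with SLPI, TSPAN1 and MAP7 admitted by their control group alone, while 51% of all 12705 genes tested were lower and 21.9% higher, and the median of all genes was -0.17. TSPAN1 was lower by -0.51 ± 0.166 (limma, adjusted p = 0.0152). TSPAN1 did not pass in 2 of 6 fits that left out 1 library, with an adjusted p of up to 0.0757 without control replicate 2. MAP7 was lower by -0.29 ± 0.114 (limma, adjusted p = 0.0387). MAP7 did not pass in 5 of 6 such fits (up to 0.115) or when replicate number was added as a block (adjusted p = 0.0565). SFN, at 0.0293, 0.0590 and 0.152 TPM in control against 0.0172, 0.0239 and 0.0471 TPM, was below the filter and its groups overlapped.

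**Figure D4:**
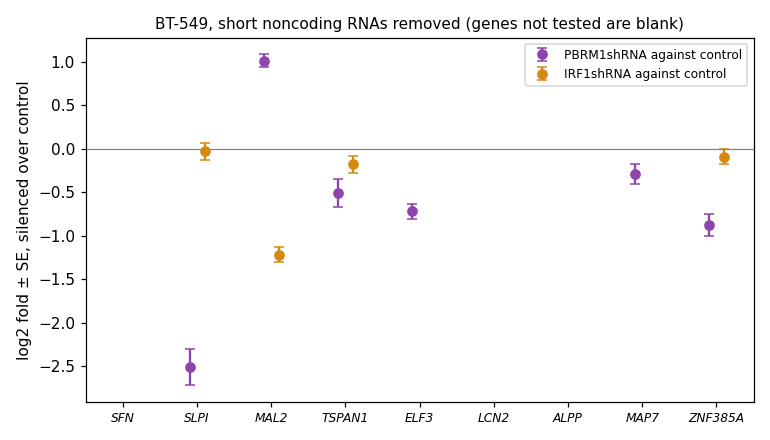
Log2 fold ± SE (silenced over control, n = 3 per group, log2(TPM + 1) after removal of short noncoding RNAs) of the 9 genes in the PBRM1 (purple) and IRF1 (orange) experiments; genes below the filter are blank. MAL2 is at 1.01 with PBRM1shRNA and at -1.22 with IRF1shRNA, and SLPI is at -2.51 and -0.03.

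The other lists in the PBRM1 experiment are given beside 34.8% lower and 24.6% higher over all genes. Of 9 tested secretory luminal genes, 7 were lower and 2 higher. ALDH1A3, a luminal progenitor enzyme, was lower by -1.27 ± 0.0882, and SYTL2 was higher (0.43 ± 0.0791). All 5 tested epithelial transcription factors were lower, KLF5 among them (-0.85 ± 0.081). Of 8 tested antiprotease, antimicrobial and acute-phase genes, 6 were lower and 1 higher. CFB dropped from 8.28 ± 0.599 to 0.102 ± 0.0287 TPM (-3.07 ± 0.0804), and CST3 from 25.3 ± 1.23 to 4.78 ± 0.152 TPM (-2.18 ± 0.088). C3 was the exception at 0.766 ± 0.097 against 3.52 ± 0.310 TPM (1.36 ± 0.0784). CFB passed the filter through its control group alone and C3 through its silenced group alone, so each was tested only because it was high there. Of 16 tested p53 pathway targets, 10 were lower and 2 higher, with CDKN1A at -1.33 ± 0.0876. Mesenchymal markers were 7 lower and 5 higher of 13, and their sum overlapped between groups (1500 to 1700 against 1610 to 1690 TPM). Apical transport and tetraspanin genes were 7 higher and 4 lower of 18, and paralogues 5 higher and 2 lower of 13. Leukocyte and erythroid markers summed to 31.9 to 36.4 TPM in control and 13.0 to 14.2 TPM with PBRM1shRNA, with 11 of 18 at 0, and the 1 tested, CD68, a lysosomal protein, was at -1.32 ± 0.0875. Endothelial markers summed to 1.98 to 2.48 against 1.63 to 1.67 TPM. After removal of short noncoding RNAs 51% of all genes tested were lower and 21.9% higher. Beside these shares, paralogues were 5 higher and 10 lower of 17, and apical and tetraspanin genes 8 higher and 8 lower of 21. The part of these in the member values was not tested.

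IRF1 silencing went with lower MAL2. None of the 9 genes passed the filter at the deposited scale (0 of 9 tested), where 18.5% of 9135 genes were lower and 5.76% higher. Without short noncoding RNAs 4 of the 9 were tested, 1 was lower and 0 higher, while 29.4% of 12724 genes were lower and 35.3% higher. IRF1 itself, a transcription factor of the interferon response, stood at 5.22, 4.49 and 4.54 TPM in control and at 1.03, 1.30 and 1.18 TPM in IRF1shRNA libraries. MAL2 measured 0.532, 0.440 and 0.432 TPM in control and 0.0944, 0.120 and 0.132 TPM with IRF1shRNA, 4.06 times lower. On the scale without short noncoding RNAs MAL2 was at 3.50, 3.47 and 3.56 TPM against 0.820, 0.873 and 1.13 TPM, a log2 fold of -1.22 ± 0.0839 (limma, adjusted p = 1.5e-07), and leaving out any 1 library gave -1.29 to -1.17. MAL2 met the filter there through the control group, since only 1 IRF1shRNA library reached 1 TPM, so this call too depended on its being high in control.

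SLPI, TSPAN1 and ZNF385A did not pass in the IRF1 experiment, and their groups overlapped at both scales. The log2 fold of SLPI was -0.03 ± 0.0962 (adjusted p = 0.792), that of TSPAN1 -0.18 ± 0.0992 (adjusted p = 0.14) and that of ZNF385A -0.09 ± 0.0845 (adjusted p = 0.344). TSPAN1 passed at 0.0107 without IRF1shRNA replicate 2. The remaining 5 genes were below the filter at either scale. ELF3 was at 0.0363, 0.0241 and 0.0192 TPM in control and at 0.0313, 0.0725 and 0.0452 TPM with IRF1shRNA, and the groups overlapped. After removal of short noncoding RNAs ELF3 was at 0.238, 0.190 and 0.158 TPM against 0.272, 0.530 and 0.389 TPM, without overlap and higher with IRF1shRNA, as were 13.7% of genes below the filter on that scale. MAP7 stood between 0.0669 and 0.106 TPM in all 6 libraries, SFN did not exceed 0.0426 TPM, and LCN2 did not exceed 0.0501 TPM.

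The other lists in the IRF1 experiment are given beside 18.5% lower and 5.76% higher over all genes. At the deposited scale the standard errors here too followed the expression level and not each gene's own spread, and the counts rest on them. Among them, 5 of 7 tested secretory luminal genes, 3 of 5 epithelial transcription factors and 2 of 4 antiprotease genes were lower and 0 of each were higher. ALDH1A3 (-1.08 ± 0.133) and RAB27B (-0.83 ± 0.147), a GTPase of secretory vesicle docking, led the first list. CD9 was lower (-0.93 ± 0.151) and CD82 higher (1.18 ± 0.147) among 15 tested tetraspanin and apical genes, 3 of which were higher and 3 lower. MAP7D2, a relative of MAP7, was higher (0.83 ± 0.121), with 1 paralogue higher and 1 lower of 13. Of p53 targets 6 were lower and 2 higher of 13, and of mesenchymal markers 5 were lower and 0 higher of 13. Leukocyte and erythroid markers summed to 8.30 to 9.39 against 6.02 to 6.97 TPM, and endothelial markers to 0.749 to 0.997 against 0.585 to 0.681 TPM. After removal of short noncoding RNAs more genes passed in both directions, with 29.4% of all genes tested lower and 35.3% higher. Secretory luminal genes were 7 lower and 1 higher of 9, and in the same order transcription factors were 4 and 1 of 5, antiprotease genes 7 and 4 of 12, apical and tetraspanin genes 11 and 6 of 22, paralogues 7 and 5 of 15, p53 targets 9 and 8 of 19 and mesenchymal markers 6 and 3 of 14.

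The genes most like the 9 were sought over all 18 libraries, as Pearson r with the mean of the 9 genes, each scaled to unit SD, after removal of short noncoding RNAs. Out of 15216 genes, UNC13D was closest (r = 0.993), followed by LETM2 (0.990), ENPP5, CALCR and CDC42BPG (0.980 each). UNC13D, which primes secretory granules for release in leukocytes, rose from a mean of 0.491 to 3.47 TPM with DOX on that scale and was at 0.323 TPM or less in the BT-549 group means. LETM2 went from 4.18 to 21.1 TPM with DOX. Among the 9, each of which is itself part of that mean, SFN had the highest r with it (0.988) and ELF3 the lowest (0.846). These values describe 18 libraries that share 2 lines and 3 separate normalizations, and they mostly follow the difference between the DOX libraries and all others.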

How the data were processed

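RNA-seq was made from 3 cultures in each of 6 groups with TruSeq Stranded mRNA kits. The submitters' processing notes name STAR, GRCh38 and DESeq2, with versions not stated. Annotation, read counter and TPM program were not given in the sources used here. Per experiment the authors deposited a table of TPM (3 in all), each column summing to 1000000 with short noncoding RNAs included, and a table of their DESeq2 results. Of the latter the mean normalized count deposited by the authors was used as a signal of depth, and their fold changes and p-values were not used. TPM keeps no depth, so no counting interval could be given. The mean counts sum to 11858741 in MDA-MB-436 and to 27111321 and 63114292 in the PBRM1 and IRF1 experiments.

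Values were analysed as log2(TPM + 1) for genes with at least 1 TPM in at least 3 of the 6 libraries of an experiment. A gene can meet this filter through 1 group alone and is then tested only because it is high there. Counts over the lists include such genes. The groups were tested in R 4.3.3 with limma 3.58.1 (linear fit, empirical Bayes moderation with trend, two-sided, Benjamini-Hochberg adjustment over all genes tested), checked on simulated data first. "Rose", "fell", "higher" and "lower" of a tested gene mean an adjusted p under 0.05, and "called" also an absolute log2 fold above 1. Each table was fitted alone, and every test was made within a table. Levels were set across the separately normalized tables only as a description, among them the correlations over all 18 libraries. The members and gene lists were chosen with earlier results of these data known. Beyond the 9 genes and the 3 silenced genes, up to 4 genes per list and table with the largest absolute log2 fold among those that passed were named, with paralogues at 1 TPM or more in any library. Other genes in the text (YWHAE, LTF, SERPINB1, SAA1, CRB3, TSPAN8 and those listed at 0, for example) were chosen after their values were seen. Some genes of the lists are counted but not reported here by name. In the PBRM1 experiment libraries with the same last number in their column names deviated together at the deposited scale (r = 0.455, 0.309 and 0.290 for deviations from the group means). The share of short noncoding RNAs was also highest at number 2 in both groups (79.2% in control and 77.3% in PBRM1shRNA). What the number stands for is not given in the labels, so whether it marks paired samples is not known. The 3 control columns of that table match no single sample label and were assigned to their group, with the column number used as replicate number. Promoter sequences came from RefSeq (GRCh38.p14) and gene spans from GENCODE release 29.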

Additional observations from a re-analysis of the deposited data

Results flagged for a closer look

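MAL2 went in opposite directions in the 2 BT-549 experiments. The ratio of mean TPM, silenced over control, was 2.43 with PBRM1shRNA, where every silenced library was higher than every control library, and 0.246 with IRF1shRNA, where every silenced library was lower. IRF1 itself was lower in both experiments (log2 fold -1.59 ± 0.0879 and -1.40 ± 0.126). The difference between the 2 effects was not tested, because the tables were normalized separately and have separate controls. After removal of short noncoding RNAs the MAL2 ratios were 2.29 and 0.269. ELF3 also went in opposite directions on that scale, with a ratio of 0.535 with PBRM1shRNA, where every silenced library was lower, and of 2.03 with IRF1shRNA, where every silenced library was higher. The ELF3 levels in the IRF1 experiment were all below 1 TPM and were not tested, its groups overlapped there at the deposited scale, and the difference between its 2 effects was not tested either.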

How the results depend on the processing

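In the PBRM1 experiment 4 of the 9 genes were tested, 3 lower and 1 higher, beside 34.8% lower and 24.6% higher over all genes. Each of the 4 passed the filter through the group where it was higher. Without the filter 5 of 8 tested were lower. With a filter of a mean of 5 TPM 0 were lower and 0 higher because no member passes it. Without short noncoding RNAs 5 of 6 tested were lower, beside 51% lower over all genes. Of the 5, SLPI, TSPAN1 and MAP7 were admitted by their control group alone, so this count is a description. After that removal, fits without 1 library gave 3 to 5 lower and 1 higher. In the IRF1 experiment 0 were tested with the filter, and 1 (MAL2) of 9 tested was lower without the filter. Without short noncoding RNAs 1 (MAL2) of 4 tested was lower, beside 29.4% lower over all genes, and MAL2 met the filter through its control group. The same 1 was lower with these RNAs removed and a replicate block. With them removed and 1 library left out, 1 to 2 were lower and 0 higher. Over the other lists the PBRM1 count of lower genes was 43 of 85 tested with the filter. It was 28 of 60 with the 5 TPM filter and 66 of 102 without short noncoding RNAs. The IRF1 counts with the filter were 6 higher and 27 lower of 72 tested. The higher count was 1 of 38 with the 5 TPM filter and 29 of 98 without short noncoding RNAs. It was 16 with median-ratio scaling, 3 with a replicate block and 3 to 11 without 1 library. The lower count was 13 of 38 with the 5 TPM filter and 52 of 98 without short noncoding RNAs. It was 17 with the block and 17 to 31 without 1 library. The cause of these shifts was not tested beyond the number of genes admitted. In MDA-MB-436 the median log2 fold of the 9 genes was 3.02 with a pseudocount of 0.1. With the replicate block MAP7 no longer passed in the PBRM1 experiment (limma without short noncoding RNAs, adjusted p = 0.0565). No other member changed in whether it passed, and 3 members stayed lower and 1 higher at the deposited scale. Same-numbered libraries correlated at -0.209, 0.0854 and 0.228 in the IRF1 experiment and at 0.053, -0.0364 and 0.00575 in MDA-MB-436, so they share only a number there. No DOX-treated control hairpin was analysed here, each hairpin was 1 line, and low counts limit LCN2, SFN and ALPP in BT-549.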
